A study of Mus musculus with 12 samples.

Results

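The 7 genes described here encode the heart's GATA factors (Gata4, Gata5 and Gata6), the Friend of GATA (FOG) cofactors that bind them (Zfpm1 and Zfpm2) and the Hand factors (Hand1 and Hand2). They were taken as a named set and matched by symbol, through GENCODE M21, to 7 of the 43629 Ensembl gene identifiers in the count tables. All material was mouse, of the strain C57BL/6, and RNA of 12 libraries, 3 per group, was sequenced. In the AGHMT group, fibroblasts from embryos had been treated for 3 weeks with Akt, Gata4, Hand2, Mef2c and Tbx5, the series title giving Akt1 as the kinase. The GHMT group had been given Gata4, Hand2, Mef2c and Tbx5 for the same time. Both groups were sorted for green fluorescence driven by αMHC, the promoter of the myosin gene Myh6. The CM group was isolated cardiomyocytes of adult ventricles, and the E group was fibroblasts 3 weeks after empty vector. No sort is named for CM or E, so in every difference between a reprogrammed group and E or CM the sort and the factors cannot be told apart. Gata4 and Hand2 were themselves supplied, and gene counts cannot separate reads of a supplied copy from those of the cell's own gene.

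GATA factors are zinc finger proteins that bind the DNA word GATA, and in the heart GATA4 and GATA6 act in cardiac progenitors and in muscle cells, switching on contractile and hormone genes. FOG proteins do not bind DNA well on their own; they sit on the amino-terminal finger of a GATA factor and bring in corepressors, among them the NuRD and CtBP complexes. Hand proteins belong to the basic helix-loop-helix (bHLH) class, pair with E proteins on the DNA word called an E-box, and are needed for growth of the ventricles. Gata4 and Hand2 are part of the cocktail with which fibroblasts are turned into cells like heart muscle.

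Depth differed between groups, with 14386407 to 18493989 gene reads per library in AGHMT, 1872558 to 2200815 in GHMT and 5120230 to 15952646 in CM. The E libraries held 15971154 to 33552138. A single read was therefore worth far more in GHMT, and 3 reads pooled over its libraries equalled 0.725 CPM (counts scaled to a library of 1000000 reads, after adjustment by trimmed means of M values), against 0.0606 in AGHMT, 0.103 in CM and 0.0246 in E. Mitochondrially encoded genes took 72.2% of gene reads in GHMT 1, the highest share of the 12 libraries. The remaining reads of CM 3 and E 1 came from genes richer in G and C than those of the other libraries of their groups, with a mean of 49.97% in CM 3 against 46.6% and 47.4%, and of 48.5% in E 1 against 46.0% and 47.4%. Akt1, which checks the AGHMT label, had 7.30, 12 and 19.6 CPM in AGHMT, 1.31, 13.5 and 13.7 in GHMT and 104, 64.1 and 21.0 in E, so that no AGHMT library exceeded any E library. The label is therefore written below as AGHMT-labelled, and each direction drawn from that group rests on it. Heart muscle markers marked CM, where the summed level of 8 genes was 21870 to 51844 CPM, and fibroblast markers marked E, where that of 7 genes was 14030 to 14468 CPM. Both lists had reads in the sorted groups, at 3607 to 4066 CPM of heart muscle and 6703 to 7811 CPM of fibroblast markers in AGHMT, and 650.2 to 1146 and 3192 to 4952 CPM in GHMT. The labels do not say that libraries came from separate cultures or animals, so each p-value measures a difference by how far these libraries spread, and that spread may be technical. In bulk RNA, fewer cells of a kind and less RNA per cell cannot be told apart.

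Of the 7 genes, Gata6 and Gata4 carried the differences from E, and Hand2 joined them in adult cardiomyocytes. A gene counted as called when its adjusted p was under 0.05 in the quasi-likelihood test of edgeR, adjusted by the Benjamini-Hochberg procedure over all 15059 genes that passed a filter on low counts. Gata4, Gata6, Zfpm1, Zfpm2 and Hand2 passed that filter, and Gata5 and Hand1 did not, so 5 of the 7 were tested in each comparison. In AGHMT-labelled cells against E, 2 of the 5 were higher (Gata4 and Gata6), against 21.9% of all tested genes. In GHMT against E the same 2 genes were higher, where 19.8% of tested genes were. In CM against E 3 were higher (Gata4, Gata6 and Hand2), beside 19.5% of tested genes. None of the 5 was lower against E, where 24.6% of tested genes were lower in AGHMT-labelled cells, 32.9% in GHMT and 22.5% in CM. Between AGHMT-labelled and GHMT cells none of the 5 was called, against 17.8% of tested genes called in either direction, whereas DESeq2 called 1 of them, Gata6, which in edgeR had the single unadjusted p under 0.05 (0.0299). In AGHMT-labelled cells against CM 2 were lower (Gata4 and Zfpm1), against 24.4% of tested genes, and in GHMT against CM 1 was lower (Gata4), against 34.7%. None was higher than in CM, where 23.7% of tested genes were higher in AGHMT-labelled cells and 23.8% in GHMT. The median log2 fold change of the 5 was 1.36 in AGHMT-labelled cells and 1.25 in GHMT against E, where the medians over all tested genes were -0.16 and -0.87. The comparisons with E share the same 3 E libraries, so their counts are not independent of each other.

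**Figure D1:**
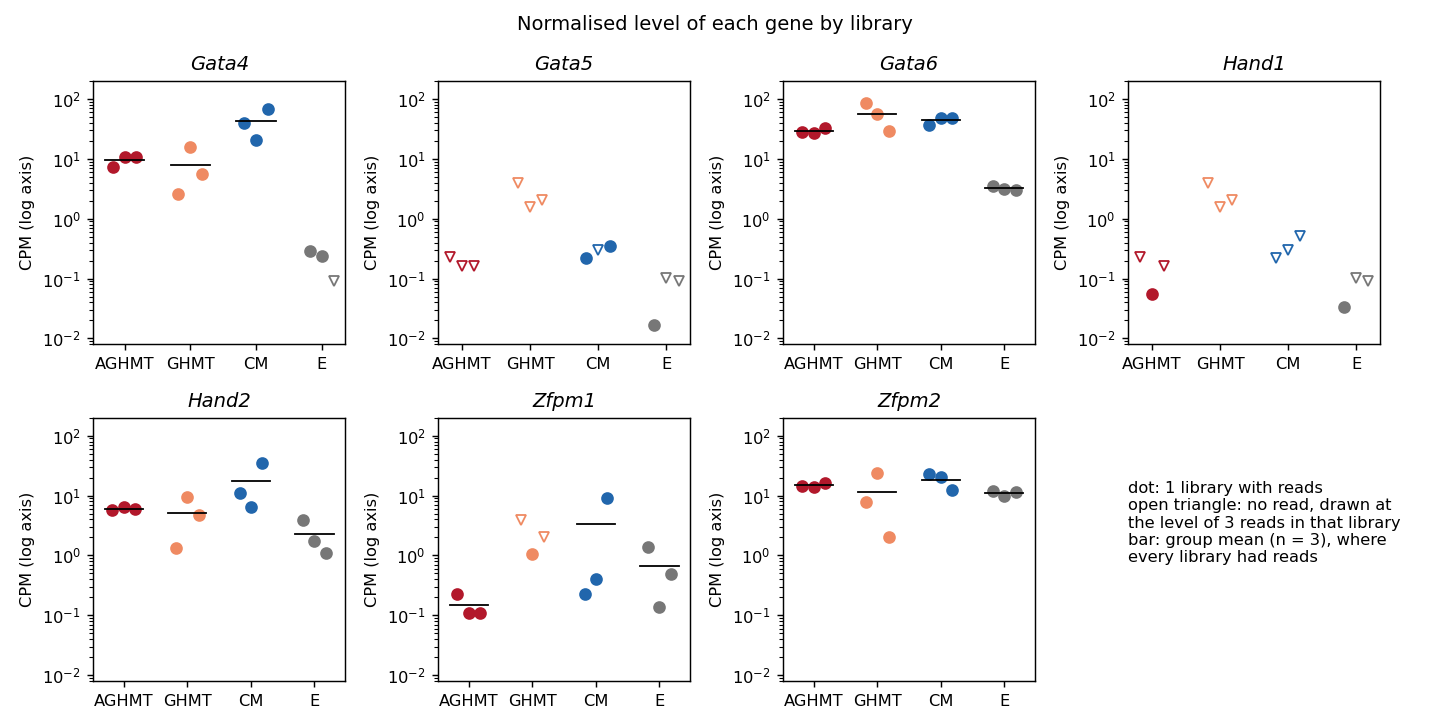
Level of each of the 7 genes in every library (log axis, CPM), by group; dots are libraries with reads, open triangles stand at the level of 3 reads in a library without reads, and bars are group means (n = 3). Gata4 and Gata6 lie above E in every library of the other groups, Zfpm2 spreads from 2.06 to 24.0 CPM in GHMT around the levels of the other groups, and Gata5 and Hand1 had hardly a read.

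Gata6 (ENSMUSG00000005836, mm10 chromosome 18, 11052064 to 11085635, plus strand) encodes a factor of cardiac progenitors and of the outflow tract, and it was not among the supplied genes. It had 28.4, 26.6 and 33.2 CPM in AGHMT-labelled libraries 1 to 3, from 369, 483 and 608 reads. The GHMT libraries 1 to 3 held 86.5, 55.8 and 28.9 CPM on the strength of 66, 107 and 42 reads. The 3 CM libraries held 36.7, 48.6 and 47.8 CPM and the 3 E libraries 3.46, 3.18 and 2.996. Every library of the other 3 groups thus lay several-fold above every E library, while GHMT spanned the range of CM and overlapped that of AGHMT, of which AGHMT 1 and AGHMT 2 lay below every GHMT library. Against E, Gata6 rose by 3.15 on the log2 scale in AGHMT-labelled cells (SE 0.42, edgeR adjusted p = 4.27e-05), which is 8.85-fold. In GHMT the rise was 4.09 (SE 0.44, edgeR adjusted p = 6.13e-06), or 17.0-fold, and it was 3.47 without E 1. In CM it was 3.74 (SE 0.43, edgeR adjusted p = 5.76e-06), or 13.3-fold. All 3 calls held under each of the 26 alternatives run, with adjusted p of at most 0.00170, 5.57e-04 and 2.68e-04; total counts gave the smallest rises, of 2.32, 2.54 and 2.77.

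By mean level the order of Gata6 was GHMT (57.0 ± 28.8 CPM, SD, n = 3), CM (44.4 ± 6.64), AGHMT-labelled (29.4 ± 3.40) and E (3.21 ± 0.235), and only the step to E passed the test. AGHMT-labelled and GHMT cells differed by -0.94 (95% interval -1.78 to -0.11, edgeR adjusted p = 0.105). That difference passed without GHMT 3, at -1.22 (adjusted p = 0.0156), and with DESeq2, at -1.12 (adjusted p = 0.0267), within a range over its alternatives of 0.0156 to 0.746. AGHMT-labelled cells and CM differed by -0.59 (interval -1.41 to 0.22, edgeR adjusted p = 0.211). With DESeq2's size factors in edgeR that value was -1.35 (adjusted p = 0.0152), DESeq2 and limma also passed it at -1.36 and -1.32 (adjusted p = 0.00163 and 0.0311), and with a correction for GC content it was 0.62 (adjusted p = 0.307). GHMT and CM differed by 0.35 (interval -0.48 to 1.18, edgeR adjusted p = 0.454), a sign that turned under 11 of the 26 alternatives, while the GC correction gave 1.996 (adjusted p = 0.00435).

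Gata4 (ENSMUSG00000021944, mm10 chromosome 14, 63198922 to 63271692, minus strand) encodes the GATA factor of the cocktail, known for driving contractile genes of the heart. It had 7.45, 10.9 and 10.7 CPM in AGHMT-labelled libraries, from 97, 198 and 197 reads. The GHMT libraries held 2.62, 15.6 and 5.50 CPM, from only 2, 30 and 8 reads. CM stood at 40.4, 20.3 and 68.0 CPM, and E at 0.284, 0.237 and 0 CPM, from 17, 7 and 0 reads. Both reprogrammed groups lay between the other 2 groups without touching either, and they overlapped each other. Gata4 rose against E by 5.05 on the log2 scale in AGHMT-labelled cells (SE 0.88, edgeR adjusted p = 1.85e-04), by 4.86 in GHMT (SE 0.91, edgeR adjusted p = 2.43e-04) and by 7.18 in CM (SE 0.95, edgeR adjusted p = 1.16e-05). With so few reads in E the size of these rises depends on the setting, and after thinning of all libraries to 612458 reads they were 2.63, 2.03 and 4.74, while each alternative that tested the gene made the 3 calls. Without GHMT 2, which held most of the GHMT reads, the rise in GHMT was 3.94 (edgeR adjusted p = 0.00391).

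Gata4, whose reads cannot be split into supplied and own copies, stood below its level in adult cardiomyocytes, with calls that some alternatives ended. Against CM it fell by 2.13 on the log2 scale in AGHMT-labelled cells (SE 0.72, edgeR adjusted p = 0.0233), which is 4.37-fold. In GHMT it fell by 2.32 (SE 0.77, edgeR adjusted p = 0.0172), or 5.01-fold. Both calls ended without CM 3, the GC-rich library, at -1.64 (adjusted p = 0.0963) and -1.84 (adjusted p = 0.0663). They also ended with the GC correction, at -0.61 (adjusted p = 0.351) and -0.69 (adjusted p = 0.323), within ranges over the alternatives of 3.20e-04 to 0.351 and 3.31e-04 to 0.323. The AGHMT call further ended without AGHMT 1, 2 or 3, at -1.94, -2.19 and -2.09 (adjusted p = 0.10, 0.0663 and 0.0902), and with total counts, at -2.07 (adjusted p = 0.0859). The GHMT call ended without GHMT 1, CM 3 and E 1 together, at -1.50 (adjusted p = 0.0999). Without GHMT 2 the GHMT difference was -3.25 (adjusted p = 0.00968). AGHMT-labelled and GHMT cells differed by 0.19 (95% interval -1.40 to 1.79, edgeR adjusted p = 0.871), an interval that spans a fold change of either sign.

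Gata5 (ENSMUSG00000015627, mm10 chromosome 2, 180325133 to 180334699, minus strand), which encodes the GATA factor known from the endocardium, was close to absent from the reads. It had no read in any AGHMT-labelled or GHMT library, 3, 0 and 2 reads in CM and 1, 0 and 0 in E. The limit that a count of 0 allows was 0.0606 CPM for the AGHMT-labelled libraries together and 0.725 CPM for GHMT. The pooled ratio of CM to E was 20.9 with an exact 95% counting interval of 2.34 to 988, which covers counting error only.

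By annotated length, Gata6 was the main GATA messenger in both reprogrammed groups. The length of the supplied Gata4 copy is not given in the sources used here, so this order rests on the annotated lengths. In adult cardiomyocytes the order of Gata4 and Gata6 depended on the length used. CPM per kilobase of exon (RPKM) averaged 4.51 ± 0.522 for Gata6 and 2.48 ± 0.498 for Gata4 in AGHMT-labelled cells (SD, n = 3 each, here and below). In GHMT they were 8.77 ± 4.43 for Gata6 and 2.03 ± 1.75 for Gata4. In CM Gata6 stood at 6.82 ± 1.02 RPKM and Gata4 at 11 ± 6.13, and in E at 0.494 ± 0.0361 and 0.0445 ± 0.0390. Gata4 made up 35.4 ± 5.07% of the per-length level of the 3 GATA genes in AGHMT-labelled cells, 20.3 ± 13.9% in GHMT, 58.5 ± 15.4% in CM and 7.66 ± 6.65% in E. Every AGHMT-labelled library, at 30.5% to 40.6%, lay below every CM library, at 41.1% to 70.1%, and above every E library, at 0% to 11.9%. In CM, Gata6 took 41.2 ± 15.6% with the length of all exons joined, but with that of the longest transcript Gata4 took 49.3 ± 15.5% and Gata6 50.5 ± 15.7%, and by reads alone 46.8 ± 15.3% and 53.0 ± 15.5%. GHMT 1, with 2 Gata4 reads, held 4.81% and so fell among the E libraries.

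**Figure D2:**
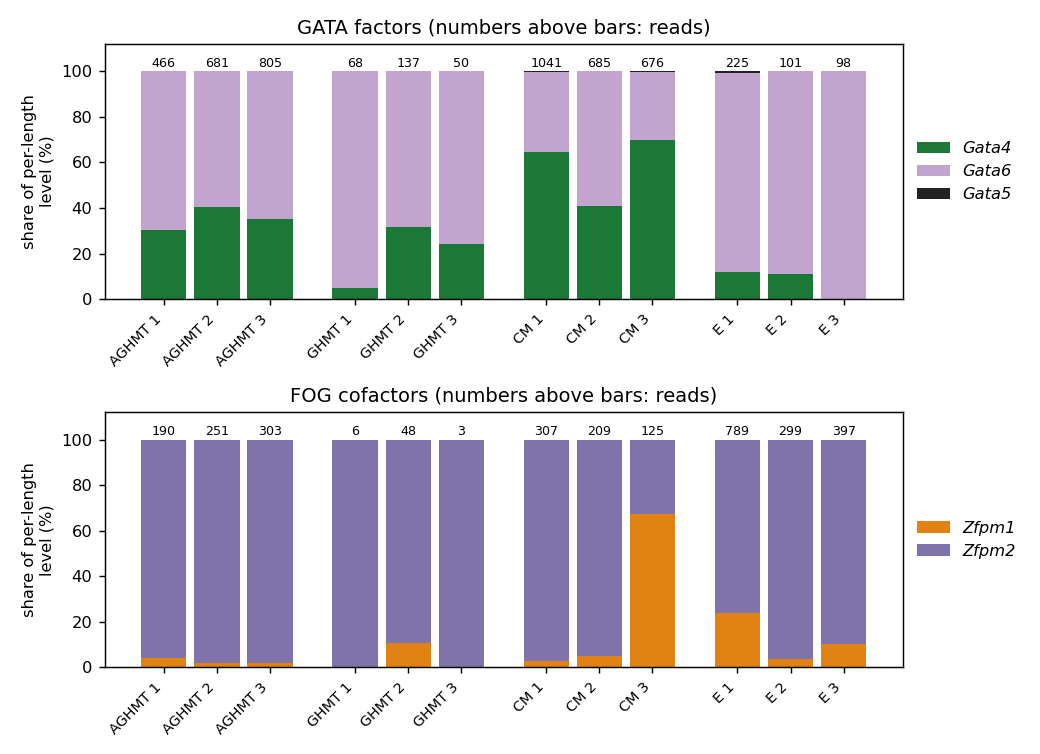
Share of the per-length level (RPKM, in percent) that each GATA gene (top) and each FOG gene (bottom) took of its family in every library, with the family's reads above each bar. Gata4 took most of the GATA level in CM 1 and CM 3 and a minority elsewhere, and Zfpm2 took most of the FOG level in all libraries but CM 3.

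Most reads of the FOG genes came from Zfpm2 in every library, and its level was called in none of the comparisons. Zfpm2 (ENSMUSG00000022306, mm10 chromosome 15, 40655035 to 41104592, plus strand) encodes FOG2, the GATA4 partner that heart development needs. It had 14.4, 13.7 and 16.4 CPM in AGHMT-labelled libraries, from 187, 249 and 301 reads. In GHMT it had 7.87, 24.0 and 2.06 CPM, from 6, 46 and 3 reads. CM held 22.6, 20.6 and 12.2 CPM and E held 11.8, 9.97 and 11.6. The AGHMT-labelled and CM libraries all lay above the highest E library, by little, and the GHMT libraries spread over and beyond the range of all the others. Against E the log2 difference was 0.41 in AGHMT-labelled cells (95% interval -0.82 to 1.65, edgeR adjusted p = 0.579), 0.07 in GHMT (-1.24 to 1.38, adjusted p = 0.933) and 0.73 in CM (-0.51 to 1.97, adjusted p = 0.336). GHMT differed from CM by -0.66 (edgeR adjusted p = 0.368), which passed without GHMT 2, at -2.01 (adjusted p = 0.0139), and with DESeq2, at -1.24 (adjusted p = 0.0364).

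Zfpm1 (ENSMUSG00000049577, mm10 chromosome 8, 122282141 to 122337251, plus strand) encodes FOG1, best known as the partner of GATA1 in red cell and platelet precursors. It had 3, 2 and 2 reads in AGHMT-labelled libraries, or 0.231, 0.110 and 0.109 CPM. GHMT held 0, 2 and 0 reads, CM held 3, 4 and 54 and E held 82, 4 and 16. In CPM, GHMT stood at 0, 1.04 and 0, CM at 0.223, 0.403 and 9.28, and E at 1.37, 0.135 and 0.489. Most of the reads in CM came from CM 3 and most of those in E from E 1, the GC-rich libraries of their groups. Zfpm1 was called lower in AGHMT-labelled cells against CM, with a log2 fold change of -3.64 (SE 1.35, edgeR adjusted p = 0.0147), although AGHMT 1 and CM 1 overlapped. Without CM 3 the value was -0.71 (adjusted p = 0.470), and the call held in 15 of the 22 alternatives that could test the gene. It ended with the GC correction, at -1.82 (adjusted p = 0.107), and without GHMT 1, CM 3 and E 1, at -0.67 (adjusted p = 0.354). Without AGHMT 2 and without AGHMT 3 it was -3.50 and -3.54 (adjusted p = 0.0571 and 0.0678), and without CM 1 it was -4.23 (adjusted p = 0.00663). The pooled ratio of GHMT to CM was 0.232, with an exact 95% counting interval of 0.0274 to 0.873, and that of GHMT to E 0.579 (0.0691 to 2.14); neither comparison was called (edgeR adjusted p = 0.163 and 0.808). Megakaryocyte and red cell markers, whose cells use Zfpm1, summed to 0.461 to 1.54 CPM over 5 of 6 genes with reads in AGHMT-labelled cells. In CM they summed to 18.6 to 27.5 over 5 of 6, with Klf1 at 0. Most of that CM sum was Hbb-bs, at 17.9 ± 2.55 CPM (SD, n = 3), beside Pf4 at 3.83 ± 2.93 and Itga2b at 0.411 ± 0.546. All 6 markers were at 0 in GHMT, which allows up to 0.725 CPM for each over its libraries together. In E 2 of the 6 had reads and summed to 0.275 to 1.74 CPM. The part of such cells in the Zfpm1 values was not tested.

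The FOG genes lie far apart in base composition, which is shown here because the libraries in which Zfpm1 stood out were those richest in G and C. The longest Zfpm1 transcript is 66.8% G and C, the highest of the 7 genes, and that of Zfpm2 44.0%, the lowest. The first 120 bases of each reading frame, from GENCODE M21 on GRCm38 with both genes on the plus strand, carry 5 and 1 runs of 4 or more bases of G or C, in capitals below. These frames are 65.1% and 48.9% G and C over their whole lengths of 2985 and 3057 bases. Each belongs to the gene's longest transcript with a frame that opens in ATG. That of Zfpm2 opens at base 40870623, inside a gene that starts at 40655035. The 2 stretches shown therefore need not be the same part of the 2 proteins.
Zfpm1: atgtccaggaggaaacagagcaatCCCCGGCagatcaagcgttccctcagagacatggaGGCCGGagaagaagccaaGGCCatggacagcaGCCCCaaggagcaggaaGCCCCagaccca
Zfpm2: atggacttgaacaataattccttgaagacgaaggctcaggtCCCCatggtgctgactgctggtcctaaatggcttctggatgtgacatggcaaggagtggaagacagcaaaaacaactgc

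In CM 3, Zfpm1 stood 4.48 above the mean of CM 1 and CM 2 on the log2 CPM scale, Hand2 2.04 and Gata4 1.24 above it, Gata6 0.18 above it, and Zfpm2 was at -0.82. In E 1 the differences from E 2 and E 3 were 1.93 for Zfpm1, 1.45 for Hand2, 0.98 for Gata4, 0.16 for Gata6 and 0.13 for Zfpm2. Over the tested genes with a mean log2 CPM over 1, the median difference also climbed with the G and C content of the transcript. In E 1 it did so up to 59%, at 1.30, and stood at 1.04 at 63%. The medians end there, below the 66.8% of Zfpm1. The order of the 5 genes by these differences thus followed their base composition, in both libraries, and Gata6 lay below the median of genes of its composition. This is a description of single libraries and has no test.

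**Figure D3:**
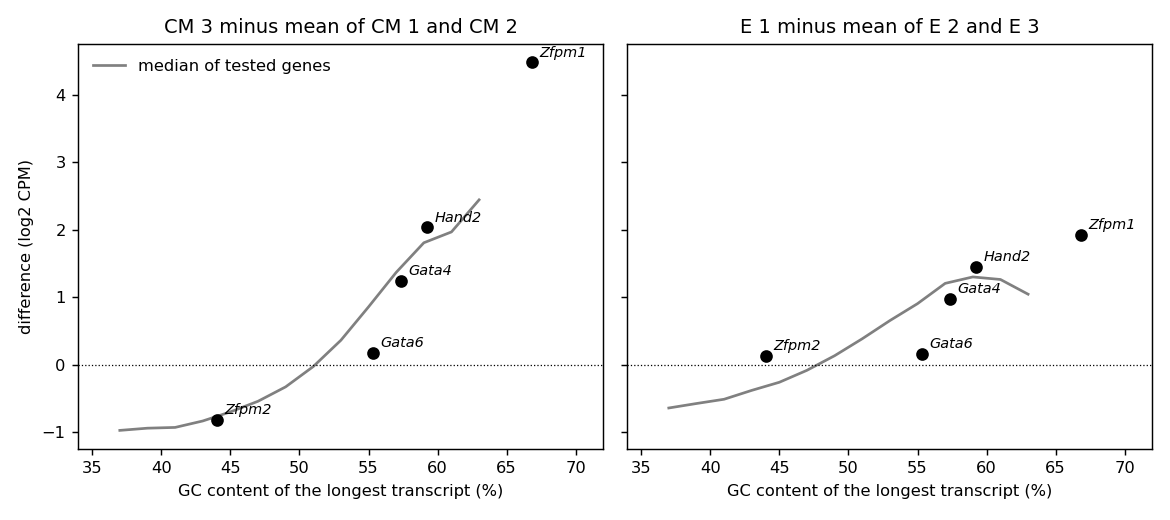
Difference of CM 3 from the other CM libraries (left) and of E 1 from the other E libraries (right), in log2 CPM, against the G and C content of each gene's longest transcript. The line is the median of tested genes with a mean log2 CPM over 1, in steps of content, and dots are the 5 tested genes. Zfpm1 stands highest in both panels, and Zfpm2 and Gata6 lie near 0 or below it.

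Hand2 (ENSMUSG00000038193, mm10 chromosome 8, 57320983 to 57324633, plus strand) encodes the Hand factor of the cocktail, a bHLH protein of the right ventricle and of sympathetic neurons. It had 5.69, 6.39 and 6.05 CPM in AGHMT-labelled libraries, from 74, 116 and 111 reads. In GHMT it had 1.31, 9.38 and 4.81 CPM, from 1, 18 and 7 reads. CM held 11.2, 6.54 and 35.6 CPM and E held 3.98, 1.72 and 1.10. The AGHMT-labelled libraries lay in a narrow band between E and CM, whereas GHMT 1 fell among the E libraries. Hand2 rose in CM against E by 2.89 on the log2 scale (SE 0.74, edgeR adjusted p = 0.00486), or 7.42-fold, and by 1.92 without CM 3 (adjusted p = 0.0277). That call held in 24 of 25 alternatives and missed with total counts (2.11, adjusted p = 0.0628). Against E Hand2 differed by 1.36 in AGHMT-labelled cells (95% interval -0.10 to 2.91, edgeR adjusted p = 0.115) and by 1.25 in GHMT (-0.35 to 2.93, edgeR adjusted p = 0.166). Without the libraries GHMT 1, CM 3 and E 1 both passed, at 1.98 and 2.23 (adjusted p = 0.00555 and 0.00737), and both passed with the GC correction, at 2.98 and 2.81 (adjusted p = 8.88e-05 and 4.34e-04). The AGHMT difference also passed in a fit of those groups alone (adjusted p = 0.0304).

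Against adult cardiomyocytes Hand2 differed by -1.53 in AGHMT-labelled cells (95% interval -3.06 to -0.04, edgeR adjusted p = 0.0835) and by -1.64 in GHMT (-3.30 to -0.03, edgeR adjusted p = 0.0743). Neither was called, and all 3 AGHMT-labelled libraries lay below all 3 CM libraries. Without CM 2 both passed, at -1.92 and -2.05 (adjusted p = 0.0409 and 0.0357); the GHMT difference also passed without GHMT 2 (-2.32, adjusted p = 0.0490), AGHMT 3 (-2.14, 0.0412) or E 1 (-2.12, 0.0300). Without CM 3, which held the most Hand2, the values were -0.55 and -0.66 (adjusted p = 0.527 and 0.454), whereas DESeq2 called both, at -2.45 and -2.50 (adjusted p = 0.00351 and 0.00551). AGHMT-labelled and GHMT cells differed by 0.11 (interval -1.51 to 1.74, edgeR adjusted p = 0.927). By mean level the order was CM (17.8 ± 15.6 CPM, SD, n = 3), AGHMT-labelled (6.04 ± 0.350), GHMT (5.17 ± 4.05) and E (2.27 ± 1.52), and no step between neighbours passed the test.

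Hand1 (ENSMUSG00000037335, mm10 chromosome 11, 57828705 to 57832818, minus strand), which encodes the Hand factor known from the left ventricle and the placenta, had 3 reads in all. A single read lay in AGHMT 2 and 2 reads in E 1, and GHMT and CM had none, which allows up to 0.725 CPM over the GHMT libraries and 0.103 CPM over those of CM. Hand2 therefore made up nearly all of the Hand reads in every library.

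**Figure D4:**
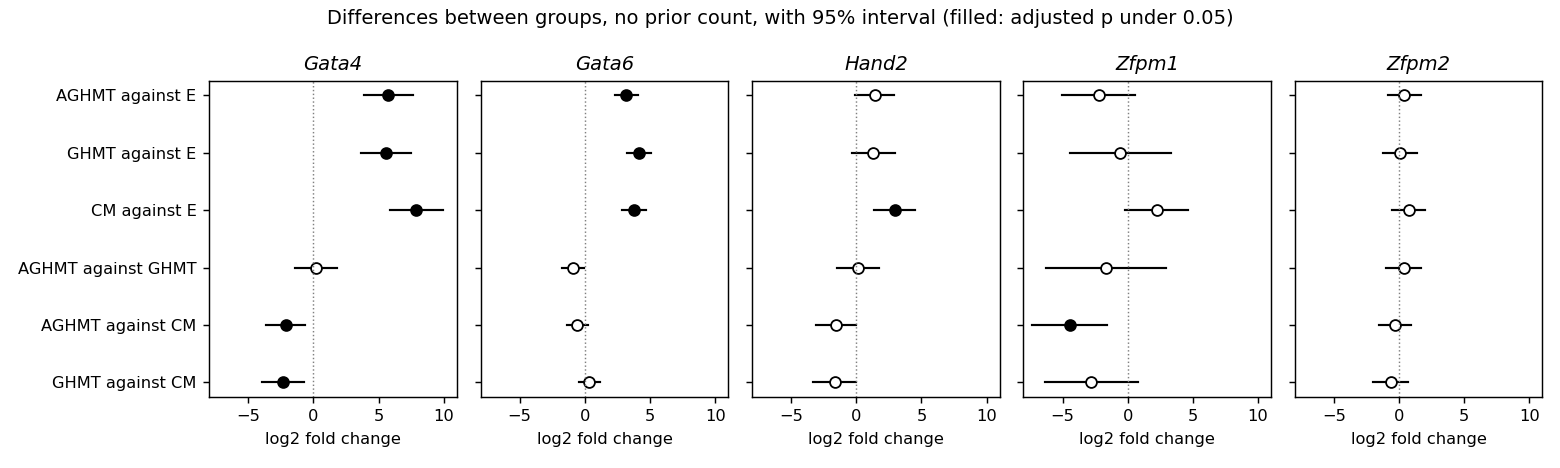
Log2 fold change of the 5 tested genes in the 6 comparisons, with no prior count and 95% intervals; filled points have an adjusted p under 0.05. Gata6 and Gata4 lie right of 0 against E in all 3 comparisons, Hand2 is filled only for CM against E, and Zfpm2 intervals all cross 0.

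The Hand2 locus gave a difference between the reprogrammed groups that the Hand2 counts did not. Hand2os1 (ENSMUSG00000100510, mm10 chromosome 8, 57281117 to 57324233, minus strand) is a long noncoding RNA on the opposite strand, which overlaps Hand2 over 3251 bases and is known in mice as upperhand. It had 16.6, 17.9 and 17.2 CPM in AGHMT-labelled libraries, from 216, 326 and 316 reads. In GHMT it had 0, 0.521 and 1.37 CPM, from 0, 1 and 2 reads. CM held 87.8, 106 and 50.3 CPM and E held 1.56, 1.59 and 2.66. The AGHMT-labelled libraries lay far above GHMT and E and below CM, and GHMT lay below all E libraries. In AGHMT-labelled cells against GHMT the pooled ratio was 23.9 (exact 95% counting interval 8.15 to 116), with a log2 fold change of 4.38 (SE 0.67, edgeR adjusted p = 9.46e-04). The call held in all 24 alternatives that could test it, from 3.23 after thinning to 5.22 without GHMT 3. Against E, Hand2os1 rose by 3.08 in AGHMT-labelled cells (SE 0.45, edgeR adjusted p = 1.02e-04) and by 5.32 in CM (SE 0.50, edgeR adjusted p = 7.98e-07). In GHMT against E the pooled ratio was 0.390 (interval 0.0798 to 1.15), which was not called (edgeR adjusted p = 0.121) but passed in 5 of 24 alternatives, among them the one without E 1 (-1.89, adjusted p = 0.0342). Both reprogrammed groups fell short of CM, AGHMT-labelled cells with a log2 fold change of -2.23 (SE 0.43, edgeR adjusted p = 9.78e-04) and GHMT at a pooled ratio of 0.00837 (interval 0.00172 to 0.0245, edgeR adjusted p = 1.40e-06).

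Each AGHMT-labelled library held 2.92, 2.81 or 2.85 Hand2os1 reads per Hand2 read, against 0, 0.0556 and 0.286 in GHMT. CM held 7.83, 16.3 and 1.42, and E held 0.391, 0.922 and 2.42. The ratio in AGHMT-labelled libraries was nearly constant and lay above every GHMT library, while CM 3 lay far below CM 1 and CM 2. An exact two-sided permutation test of AGHMT-labelled against GHMT libraries gave p = 0.1, the smallest that 3 against 3 can give. Of the 50-base words of the longest Hand2 transcript, 15.8% also occur in Hand2os1 when both strands are searched. The libraries were made with a stranded kit, but whether the counting used strand is not given in the sources used here. Reads of the shared part may therefore have been counted for either gene or left uncounted, and the Hand2 values carry that uncertainty.

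The start of Hand2 is printed because the windows around the starts of Hand2 and Hand2os1 share 223 bases. The window runs from 250 bases before to 50 bases after the RefSeq start, on GRCm38.p6 at chr8:57320733-57321032, plus strand, and capitals mark GATA words and E-boxes.
Hand2: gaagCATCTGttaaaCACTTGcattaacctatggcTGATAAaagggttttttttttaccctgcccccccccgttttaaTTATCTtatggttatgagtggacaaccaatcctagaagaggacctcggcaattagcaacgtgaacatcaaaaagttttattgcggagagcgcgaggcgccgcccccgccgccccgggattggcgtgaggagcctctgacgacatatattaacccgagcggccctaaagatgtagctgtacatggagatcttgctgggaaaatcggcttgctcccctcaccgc
The GATA words searched were AGATAA or AGATAG, together with TGATAA or TGATAG, and the E-box was CANNTG, each on both strands. The window holds 2 GATA words, at -215 and -172 from the start, and 2 E-boxes, CATCTG and CACTTG. Among 32851 windows of 300 bases, 29.8% hold at least 1 of these GATA words and 72.3% at least 1 E-box, so either match alone is common. RefSeq windows were found for 3 of the 7 genes (Gata5, Hand2 and Zfpm1). That of Zfpm1 (chr8:122281891-122282190, plus strand) holds neither word and is 73.7% G and C, that of Gata5 (chr2:180334630-180334929, minus strand) holds 1 E-box and no GATA word, and Hand2's own is 50.3% G and C, where the median over all windows is 52.7%.

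**Figure D5:**
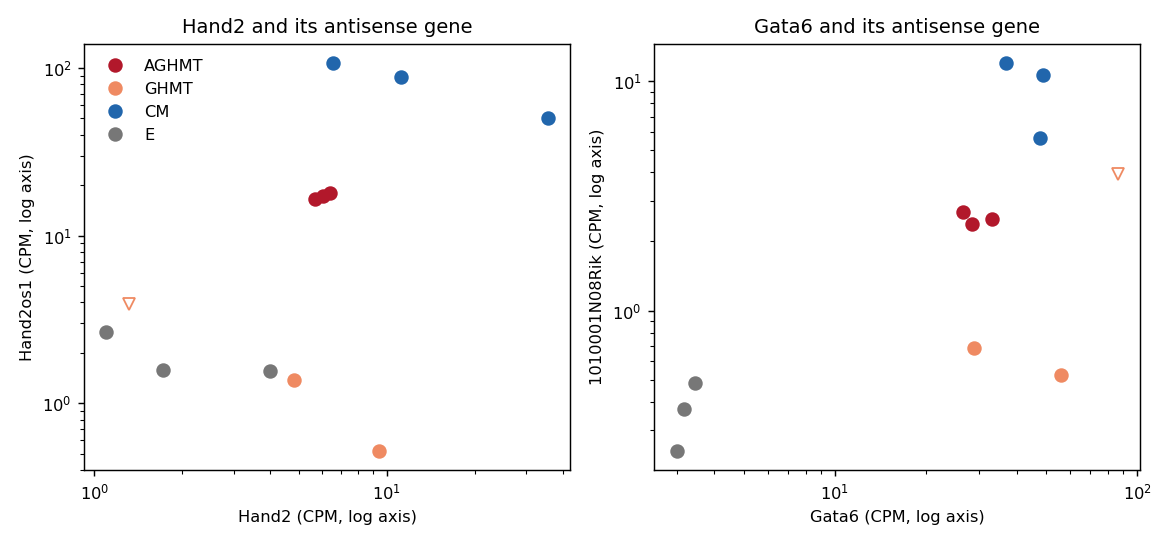
Level of Hand2os1 against Hand2 (left) and of 1010001N08Rik against Gata6 (right) in each library, in CPM on log axes; open triangles stand at the level of 3 reads in a library without reads. The ranges of AGHMT-labelled and GHMT libraries overlap for Hand2 and Gata6, and the antisense genes lie higher in AGHMT-labelled libraries than in the GHMT libraries with reads.

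A transcript on the strand opposite to Gata6 was likewise highest in CM and next highest in AGHMT-labelled cells. 1010001N08Rik (ENSMUSG00000097222) is annotated on the strand opposite to Gata6 and shares 0.295% of the 50-base words of the longest Gata6 transcript. It had 31, 49 and 46 reads in AGHMT-labelled libraries, or 2.38, 2.70 and 2.51 CPM. GHMT held 0, 1 and 1 reads, CM held 12, 10.7 and 5.67 CPM and E held 0.485, 0.372 and 0.245 CPM. AGHMT-labelled libraries lay between E and CM with no overlap. Against E it rose by 2.44 on the log2 scale in AGHMT-labelled cells (SE 0.59, edgeR adjusted p = 0.00206) and by 4.30 in CM (SE 0.63, edgeR adjusted p = 3.19e-05). The pooled ratio of AGHMT-labelled to GHMT libraries was 5.26 (exact 95% counting interval 1.43 to 43.9), which was not called (edgeR adjusted p = 0.0630); it passed in 6 of 25 alternatives, among them those without AGHMT 3 (2.69, adjusted p = 0.0352) and without E 1 (2.55, adjusted p = 0.0198). Per Gata6 read there were 0.0870 ± 0.0132 of its reads in AGHMT-labelled libraries and 0.0111 ± 0.0120 in GHMT (SD, n = 3 each), groups that did not overlap (exact permutation p = 0.1, the smallest possible). In E the ratio was 0.113 ± 0.0294 and in CM 0.221 ± 0.104. The AGHMT-labelled mean thus lay below that of E, with overlapping libraries (exact permutation p = 0.3).

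Markers of other cells moved with some of these results. The 6 endothelial markers, all with reads in each group, summed to 61.8 to 72 CPM in AGHMT-labelled libraries, 2.62 to 11.5 in GHMT, 473 to 610 in CM and 8.01 to 9.53 in E. This is the order of the group means of Hand2os1 but for GHMT and E, whose ranges overlap. Heart muscle, macrophage and endoderm sums were also highest in CM and next highest in AGHMT-labelled libraries. For macrophage markers the ranges of AGHMT-labelled libraries and E overlapped. Of 8 mast cell markers, 7 had reads in AGHMT-labelled libraries and summed to 312 to 341 CPM, with Tpsb2 at 0. Nearly all of that sum was Mcpt4, at 322 ± 15.5 CPM (SD, n = 3), while Kit stood at 1.28 ± 0.444 CPM in AGHMT-labelled cells and at 6.81 ± 1.35 in CM. In GHMT only Mcpt4 of the 8 had reads, at 65.5 to 162 CPM, and in CM and E the sums were 8.93 to 12.1 and 0.535 to 1.28 CPM. The sum of the smooth muscle markers, of which all 5 had reads in E, was highest there, with 376 to 580 CPM in AGHMT-labelled libraries, 308 to 489 in GHMT, 88.2 to 425 in CM and 1087 to 5519 in E. Acta2 and Tagln made up most of it in E, and Myh11 was highest in AGHMT-labelled cells, at 127 ± 40.2 CPM against 32.2 ± 34.7 in GHMT, 28.6 ± 10.6 in CM and 35.9 ± 13.2 in E. The 7 macrophage markers summed to 31.8 to 46.3 CPM in AGHMT-labelled libraries, 1.31 to 6.19 in GHMT, 82.9 to 147 in CM and 12.1 to 38.3 in E, with Cd68, Adgre1, C1qa and Cd14 at 0 in GHMT. For any marker, a count of 0 in GHMT allows up to 0.725 CPM over its libraries together. The AGHMT-labelled means of C1qa and Cd14 lay below that limit, at 0.684 and 0.417 CPM. Those of Cd68 and Adgre1 lay above it, at 0.826 and 6.58 CPM. Sympathetic neuron markers, whose cells use Hand2, were at or near 0, with 0 to 0.154 CPM in AGHMT-labelled libraries, no read in GHMT, 0.503 to 2.92 CPM in CM and 0 to 0.0338 in E. Endoderm markers, whose cells use Gata4 and Gata6, summed to 2.13 to 2.61 CPM over 3 of 4 genes with reads in AGHMT-labelled libraries, with Afp at 0. They had no read in GHMT, 4.90 to 7.04 CPM in CM and 0.0306 to 0.0338 in E. Nearly all of the sum was Sox17 in AGHMT-labelled cells, at 2.34 ± 0.330 CPM (SD, n = 3), and in CM, at 5.64 ± 1.23. Foxa2 and Ttr were at 0 in CM. The 6 epicardial markers summed to 70.4 to 88.6 CPM in AGHMT-labelled libraries, 34.1 to 101 in GHMT, 23.8 to 33.8 in CM and 13.5 to 21.7 in E. The part of endothelial, mast, smooth muscle, macrophage, endoderm and epicardial cells in the Gata4, Gata6, Hand2 and Hand2os1 values was not tested.

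Other GATA-type factors went different ways. Of 4 such genes, Gata1 was not tested. Trps1, a repressor with a GATA-type finger, rose against E by 1.42 in AGHMT-labelled cells (120 ± 24.2 against 44.9 ± 8.64 CPM, SD, n = 3 each, edgeR adjusted p = 0.00509) and by 1.71 in GHMT (148 ± 50.2 CPM, edgeR adjusted p = 0.00136). In CM it fell by 1.83 (12.5 ± 4.52 CPM, edgeR adjusted p = 7.74e-04). Both rises ended with total counts, at 0.57 and 0.17 (adjusted p = 0.158 and 0.667), and that in GHMT also without E 1, at 0.90 (0.0627), and with the GC correction, at 0.42 (0.161); without AGHMT 3 it was 1.09. Gata2, a factor of blood and endothelial cells, had no read in GHMT and 7.33, 3.96 and 3.94 CPM in E, at least 7.73-fold lower when 3 reads are assumed in the GHMT libraries together (edgeR adjusted p = 0.00302). Gata3 was called higher in GHMT (2.78, edgeR adjusted p = 0.0462), but 43 of its 47 reads came from GHMT 1, and without that library the difference was -1.13 (edgeR adjusted p = 0.263).

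Among 15 known partners of GATA factors in the heart, 14 were tested, and Nkx2-5 was not. Against E, 6 were higher and 2 lower in AGHMT-labelled cells, 7 higher and 3 lower in GHMT, and 7 higher and 3 lower in CM. Of all tested genes 21.9% were higher and 24.6% lower in AGHMT-labelled cells, 19.8% and 32.9% in GHMT, and 19.5% and 22.5% in CM. The list had medians of 0.49, 1.12 and 0.87 where those of all tested genes were -0.16, -0.87 and -0.25. Mef2c and Tbx5, which were supplied, are among the higher ones. Tbx20, a T-box factor of heart muscle that was not supplied, stood at 960 ± 163 CPM in AGHMT-labelled cells, 1302 ± 280 in GHMT, 138 ± 52.7 in CM and 0.861 ± 0.182 in E. It rose by 9.95, 10.38 and 7.15 on the log2 scale against E (edgeR adjusted p = 4.28e-09, 3.13e-09 and 8.10e-09), and the rise in GHMT was 9.61 without E 1. Nfatc4, a calcineurin-dependent partner, fell by 5.25 in GHMT (2 reads in all, pooled over its libraries; edgeR adjusted p = 3.02e-04), and it fell by 3.84 in CM (edgeR adjusted p = 3.20e-04; -4.59 without CM 3). Between the reprogrammed groups 2 of the 14 tested partners were called, near the 17.8% of all tested genes called in either direction. Beside Ep300 the gene called was Mef2a, another MADS-box partner. It was lower in AGHMT-labelled cells, at 473 ± 59.0 against 1163 ± 433 CPM (-1.30, edgeR adjusted p = 0.0168), and that call ended without GHMT 1 (-1.09), GHMT 2 (-1.16), AGHMT 2 (-1.22), AGHMT 3 (-0.59) or E 1 (-0.64), and with total counts (-0.67).

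No gene of the corepressors that FOG proteins recruit was called higher against E, and the counts of lower ones in GHMT and CM lay near the background. All 15 were tested, and 6 were lower in AGHMT-labelled cells, 4 in GHMT and 4 in CM, with none higher, where 24.6%, 32.9% and 22.5% of all tested genes were lower. The shares of all tested genes called higher were 21.9% in AGHMT-labelled cells, 19.8% in GHMT and 19.5% in CM. Their medians were -0.84, -0.84 and -0.86, where the medians of all tested genes were -0.16, -0.87 and -0.25. In GHMT the list's median is thus that of all genes. Gatad2b, a subunit of the NuRD complex, fell by 2.43 in AGHMT-labelled cells (3.50 ± 1.69 against 19.3 ± 4.27 CPM, SD, n = 3 each, edgeR adjusted p = 0.00676), a call lost without AGHMT 3 (-2.12, 0.0574). In GHMT it fell by 3.50 (1.48 ± 1.57 CPM, edgeR adjusted p = 0.00193; -5.06 without GHMT 2). Chd4, the ATPase of that complex, stood at 32.7 ± 28.8 CPM in GHMT against 271.6 ± 34.7 in E and so fell by 3.01 (edgeR adjusted p = 1.85e-04; -3.98 without GHMT 3). Rbbp7, a histone-binding subunit with the highest mean of the list, had 198 ± 21.2 CPM in AGHMT-labelled cells, 156 ± 14.3 in GHMT, 141 ± 57.0 in CM and 158 ± 58.3 in E and was not called in these comparisons.

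bHLH partners and Id inhibitors of the Hand proteins gave calls in both directions. Of 14 genes 13 were tested, Tcf21 being the exception, and against E 3 were higher and 3 lower in AGHMT-labelled cells, 2 higher and 4 lower in GHMT, and 3 higher and 5 lower in CM. In AGHMT-labelled cells and GHMT these counts lie near the shares of all tested genes, 21.9% higher and 24.6% lower in AGHMT-labelled cells and 19.8% and 32.9% in GHMT, beside 19.5% and 22.5% in CM. The list's medians were -0.10, 0.32 and -0.22, where those of all tested genes were -0.16, -0.87 and -0.25. Hey2, a repressor of the ventricle's compact layer, stood at 38.2 ± 6.57 CPM in AGHMT-labelled cells, 13.3 ± 6.95 in GHMT, 7.38 ± 1.54 in CM and 0.859 ± 0.527 in E. Against E it rose by 5.30 in AGHMT-labelled cells (edgeR adjusted p = 1.19e-05) and by 3.79 in GHMT (edgeR adjusted p = 1.32e-04; 2.91 without E 1 and 3.20 without AGHMT 3). Twist1 and Twist2, bHLH factors of mesenchyme, were lower in CM, where Twist1 fell by 4.63 and Twist2 fell by 4.72 (edgeR adjusted p = 1.07e-05 and 2.79e-04). Tcf4, the E protein with the highest mean of the list, was not called in any of the 3 comparisons with E.

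Most known heart targets of GATA4 and Hand2 were called against E. Of 16 genes 15 were tested. Against E, 11 were higher and 1 lower in AGHMT-labelled cells and in GHMT alike, and 12 higher and 2 lower in CM. Of all tested genes 21.9% were higher and 24.6% lower in AGHMT-labelled cells, 19.8% and 32.9% in GHMT, and 19.5% and 22.5% in CM. The list had medians of 5.05, 4.70 and 8.08, where those of all tested genes were -0.16, -0.87 and -0.25. The list includes Mef2c, which was supplied, and Myh6, on whose promoter the sort was made. Corin, the protease that activates atrial natriuretic peptide, rose by 8.33 in AGHMT-labelled cells (89.6 ± 13.2 against 0.170 ± 0.104 CPM, SD, n = 3 each, edgeR adjusted p = 2.41e-08) and by 8.72 in GHMT (118 ± 37.8 CPM, edgeR adjusted p = 1.95e-08; 7.66 without E 1 and 8.13 without AGHMT 3). Chrm2, the muscarinic receptor that slows the heart, rose by 7.39 and 8.38 (117 ± 18.0 CPM in AGHMT-labelled cells and 232 ± 48.6 in GHMT against 0.580 ± 0.167 in E, edgeR adjusted p = 2.45e-08 and 1.43e-08). Between AGHMT-labelled and GHMT cells 2 were higher and 1 lower, near the share of all tested genes called there in either direction, 17.8%. Actc1, cardiac α-actin, stood at 469 ± 105 against 103 ± 22.9 CPM (2.18, edgeR adjusted p = 0.00430; 2.80 without E 1), and the sodium-calcium exchanger gene Slc8a1 at 85.4 ± 18.0 against 26.0 ± 5.48 CPM (1.70, edgeR adjusted p = 0.00441; 2.44 without AGHMT 3 and 2.32 without E 1). Nppa, atrial natriuretic peptide, was called lower, at 8.65 ± 3.10 against 23.1 ± 14.0 CPM (-1.46, edgeR adjusted p = 0.0391), with groups that overlapped. That call ended when any of the GHMT 2, GHMT 3, AGHMT 1 to 3, CM 1, CM 2, E 1 or E 2 libraries was left out, at -1.03, -1.39, -1.27, -1.36, -1.18, -1.44, -1.44, -0.88 and -1.45, and also with total counts (-1.05).

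The genes whose profiles over the 12 libraries lay nearest to each tested gene were found among 8907 genes by the root-mean-square distance between log2 CPM profiles, each centred on its own mean. Nearest to Gata6 were Acer2 (0.38), a ceramidase, Aldh6a1 (0.40) and Hsdl2 (0.44), where the median distance over all candidates was 2.25. Nearest to Gata4 were Filip1 (0.58), Akap6 (0.83), an anchor of protein kinase A in heart muscle, and Fhod3 (0.88), an actin-assembling formin of the sarcomere, against a median of 3.14. Hand2 lay nearest to Itga9 (0.55), March2 (0.71) and Neat1 (0.71), against a median of 1.88. Zfpm2, whose level varied little outside GHMT, lay nearest to Mief1 (0.28), Chd6 (0.28) and Elf2 (0.31), against 1.58. Zfpm1 lay nearest to Stk11 (0.83), Grina (0.94) and Gpc1 (0.97), against 2.13. All points share the 12 libraries and their depth, and the distances are a description with no test.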

How the data were processed

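Per the labels, TRIzol was used for the RNA and a stranded TruSeq kit for the libraries. The deposited files hold counts of reads per gene, which the authors made with Bowtie2 2.0.6 and HTSeq on mm10, per the submitters' processing notes. Neither the strand setting nor the annotation release is given in the sources used here. A further deposited table holds normalized signal, which the authors made with DESeq; division by 1 factor per library gave whole reads for 100% of values (tolerance 0.001). The 7 genes, the lists of other genes, the tests and the alternatives were chosen with earlier results of these data known.

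The counts were filtered with filterByExpr of edgeR 4.0.16 in R 4.3.3 (minimum count 10, minimum total 15) and scaled by TMM. All 12 libraries entered 1 robust quasi-likelihood fit, with Benjamini-Hochberg adjustment over all tested genes and a threshold of 0.05. The script was tested on simulated data. Log2 fold changes have a prior count of 2; SE and intervals have none. Positions, exon lengths and names come from GENCODE M21, which matched 42462 of 43629 identifiers. Named genes were the 7 genes, Akt1, the most abundant and up to 3 most changed called genes of each list in the comparisons with E and of AGHMT with GHMT, and the 3 nearest profiles; not all of them are printed, and the antisense genes, Gata3's GHMT 1 and marker lists beside results were chosen after values were seen. Alternatives were DESeq2 size factors in edgeR, total counts, counts without genes of the mitochondrial genome, no filter at all, a filter of over 1 CPM in 3 libraries, DESeq2 1.42.0, limma 3.58.1 on the log2 of deposited signal plus 1, a fit of the compared groups alone, a block for the replicate number, a prior count of 0.5, a GC correction (spline with 5 degrees of freedom), thinning to 612458 reads, and each library left out. The recovered reads and the fit without GHMT 1, CM 3 and E 1 were added after seeing the data. The test on recovered reads called 2678 of 15050 genes in AGHMT against GHMT and 6312 to 8818 in the other comparisons. Intervals of pooled ratios and floors of 3 reads cover counting error only.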

Additional observations from a re-analysis of the deposited data

How the results depend on the processing

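Relative to E, Gata6 and Gata4 kept their direction and their calls in AGHMT-labelled cells, GHMT and CM under every alternative that tested them, and Hand2 in CM under all but total counts. Over named genes and counts of called genes together, 2245 alternative values were unchanged, 134 fell short of the threshold, 40 newly passed it and 53 changed sign. For a named gene, unchanged means the same direction and side of the threshold. Scaling by total counts moved the median log2 fold change of all tested genes by -1.18 to 0.40 over the 6 comparisons, DESeq2's size factors by -0.69 to 0.38, counts without mitochondrially encoded genes by -0.39 to 0.30, thinning by -0.42 to 0.67 and the GC correction by -0.04 to 0.42. The number of the 7 genes called was 2 in GHMT against E but 1 with only the 2 groups (3 genes tested), and 3 with the GC correction or without GHMT 1, CM 3 and E 1. In AGHMT against E it was 2, but 3 with the GC correction, without those 3 libraries, with no filter, with only the 2 groups or without CM 3. It was 3 in CM against E but 5 with no filter (7 tested), and in AGHMT against GHMT it was 0 but 1 with DESeq2. In GHMT against CM it was 1, but 2 with DESeq2's size factors, without mitochondrially encoded genes or with no filter, 3 with DESeq2 or limma and 0 without GHMT 1, CM 3 and E 1. In AGHMT against CM it was 2, but 4 with DESeq2's size factors, 1 with total counts, the stricter filter, only the 2 groups, thinning or without those 3 libraries, and 0 with the GC correction. With each library left out in turn it ran from 0 to 1 in AGHMT against GHMT, 0 to 3 in GHMT against CM and 0 to 3 in AGHMT against CM.

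Same-numbered libraries did not deviate together (correlation of -0.72 to 0.13 per pair), which gave no sign that replicate numbers pair the libraries. It cannot exclude pairing, because single libraries also deviated with the G and C content of the transcripts. With the replicate number as a block, 2 genes were called in GHMT against E, 2 in AGHMT against E, 3 in CM against E, 0 in AGHMT against GHMT, 1 in GHMT against CM and 1 in AGHMT against CM, where Zfpm1 stood at -3.04 (adjusted p = 0.0517).

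The sign changes touched differences that had not been called, apart from Gata3. Gata6 in GHMT against CM was -0.22 with DESeq2's size factors, -0.23 with total counts and with DESeq2, -0.14 without mitochondrially encoded genes, -0.35 with limma, -0.17 with only the 2 groups, -0.25 after thinning and -0.0199 without GHMT 1, CM 3 and E 1. Zfpm2 in GHMT against E was -0.16 with DESeq2's size factors and after thinning, -1.18 with total counts, -0.11 without mitochondrially encoded genes, -0.0513 with no filter, -0.14 with DESeq2, -0.77 with limma, -0.0310 with only the 2 groups, -0.17 with the replicate block and -0.34 with the GC correction. Total counts also gave -0.42 for Zfpm2 in AGHMT against E, -0.31 for it in CM against E and -0.77 for 1010001N08Rik in GHMT against E, where limma gave -0.46. The GC correction gave 0.62 for Gata6 in AGHMT against CM, 0.87 for Zfpm1 in GHMT against E, 0.10 for Hand2 in GHMT against CM and 0.27 for it in AGHMT against CM. Without GHMT 1, CM 3 and E 1, Zfpm1 was 0.66 in GHMT against E, -0.0341 in CM against E and 0.70 in GHMT against CM. In AGHMT against GHMT the same fit gave -0.15 for Gata4, -0.25 for Hand2 and -0.0660 for Akt1, and Gata3 in GHMT against E was -1.27, or -0.24 with limma. With single libraries left out, Gata4 ran from -0.13 to 1.16, Zfpm1 from -1.64 to 1.23, Zfpm2 from -0.15 to 1.71, Hand2 from -0.23 to 0.83 and Akt1 from -0.0594 to 0.91 in AGHMT against GHMT. In GHMT against E, Zfpm1 ran from -2.86 to 0.0163, Zfpm2 from -1.29 to 0.56, 1010001N08Rik from -0.10 to 0.55 and Gata3 from -1.13 to 3.35. Zfpm1 ran from -0.92 to 2.81 in CM against E, Gata6 from -0.20 to 0.63 and Zfpm1 from -4.88 to 0.45 in GHMT against CM. The cause of these changes was not tested. Depth limits GHMT most, where Gata4 rested on 2 to 30 reads a library, Hand2 on 1 to 18, Zfpm2 on 3 to 46 and Zfpm1 on 0 to 2.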
